A study of Mus musculus with 8 samples.

Results

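Interferon response genes are genes whose transcripts rise when a cell receives type I or type II interferon. A list of 30 of them was followed in mouse myocardium, the muscle of the heart, chosen by gene symbol and matched to array probes through RefSeq transcripts. Of the 30 genes, 28 had a matched probe, with 36 probes in all, and no probe was matched to Mx1 or Mx2. Each of the 28 genes was well above background on all 8 arrays, so none was lost to the filter on dim probes, out of 20659 gene symbols on the array and 19056 tested. The rule for the list names the genes, and the list was drawn up with earlier results of these data known.

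The series compared untreated male mice labelled NPRA-/- (3 arrays) and NPRA+/+ (5 arrays), with 1 sample of myocardial total RNA on each 1-colour Agilent array. Npr1 encodes NPRA, through which the atrial and B-type natriuretic peptides signal. The labels describe a conditional model with an NprA flox/flox allele and the series title calls the deficiency cardiac-specific. The labels name no Cre driver and no ages, and they do not say whether the NPRA+/+ mice carried floxed alleles or Cre. The labels number the samples as biological repetitions, but none names an animal, so every p-value measures the spread between these samples, which may be technical.

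Interferons act on cell surface receptors that switch on JAK kinases and STAT proteins. Type I interferon assembles a complex that contains STAT2 and IRF9 and binds the interferon-stimulated response element of target promoters, and interferon-gamma acts at a different element. The targets include sensors of viral RNA and DNA, proteins that block viral translation, assembly or entry, guanylate-binding and immunity-related GTPases, and chemokines. In the heart these programmes are known from viral myocarditis and from the response to nucleic acids released by damaged cells. The tissue was measured in bulk, where fewer cells of a type and less RNA per cell cannot be told apart.

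The promoters of the list share a sequence feature that the choice by name did not use, and a few are shown because they carry the core of that response element. The element was searched on both strands as GAAA, any 2 bases and GAAA again, in the window from 250 bases before to 50 bases after the gene's start in RefSeq (GRCm38.p6). That table held 23 of the 30 genes, which left out Mx1, Mx2, Oas2, Usp18, Rtp4, Zbp1 and Iigp1. At least 1 match lay in the window of 14 of the 23 genes, 60.9% with an exact Clopper-Pearson 95% interval of 38.5% to 80.3%, against 1079 of 27025 genes in the whole table (3.99%). Counting only bases before the start, 11 of the 23 genes held it (47.8%), against 3.46% of all genes. The stretches below are written on the gene's own strand with the match in capitals, which read TTTC, 2 bases and TTTC where the match lies on the opposite strand. Positions are counted from the gene's start, with -1 the base before it.
Isg15, chr4:156200850-156200921, minus strand: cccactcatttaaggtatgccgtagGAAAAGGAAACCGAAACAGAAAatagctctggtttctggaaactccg
Ifit1, chr19:34640760-34640838, plus strand: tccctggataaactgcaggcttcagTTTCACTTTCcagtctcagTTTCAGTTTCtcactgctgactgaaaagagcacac
Ifit3, chr19:34583348-34583441, plus strand: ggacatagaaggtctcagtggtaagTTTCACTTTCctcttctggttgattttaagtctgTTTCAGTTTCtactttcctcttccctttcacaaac
Oas1a, chr5:120907526-120907570, minus strand: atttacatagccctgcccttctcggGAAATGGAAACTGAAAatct
Rsad2, chr12:26456538-26456597, minus strand: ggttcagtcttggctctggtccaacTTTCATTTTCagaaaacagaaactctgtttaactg
Bst2, chr8:71537562-71537627, minus strand: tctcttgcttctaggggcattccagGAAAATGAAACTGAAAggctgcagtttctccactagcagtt
Cxcl10, chr5:92349068-92349127, minus strand: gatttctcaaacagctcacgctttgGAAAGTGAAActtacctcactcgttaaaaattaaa

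In Isg15 the capitals held 3 overlapping matches, the farthest starting at -78. Ifit1 and Ifit3 each held 2 separate matches, and Oas1a and Bst2 each held 2 that overlap. The second element, TTCNNNGAA on both strands, is the core of the interferon-gamma-activated site and was searched after the first results were seen. It lay in the window of 7 of the 23 genes (30.4%), against 9.55% of all genes. The exact Clopper-Pearson interval, at the level used for the first element, was 13.2% to 52.9%. Before the start alone, 5 of the 23 genes held the second element (21.7%), against 8.13% of all genes. There the interval was 7.46% to 43.7%, which includes the share of all genes. Irf1, the factor named for interferon regulation and a classical target of interferon-gamma, held this element and no match of the first in its window, with the match starting at -90.
Irf1, chr11:53769899-53769957, plus strand: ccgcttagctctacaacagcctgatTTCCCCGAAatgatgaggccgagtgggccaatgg
In Bst2 and Ifitm3, 2 promoters of the list, matches of both elements overlap. A match is a description of letters, and no binding was measured in these samples.

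Per array, 79.5% to 92.6% of 39429 probes stood well above background and 0 were saturated; precision is limited by the small number of arrays. The 7 cardiomyocyte markers tested, among them Myh6, Myl2 and Actc1, were well above background on all 8 arrays. The probe for Npr1 did not separate the labels, with a level of -5.85 ± 0.50 (SD, n = 3) on the NPRA-/- arrays and -5.88 ± 0.66 (SD, n = 5) on the NPRA+/+ arrays, and it was well above background on 2 of 3 and 4 of 5 of them. Whether it lies in the deleted part of the gene is unknown here, so it does not check the labels. A level is the log2 signal of a gene's brightest probe minus the 75th percentile of its array, and levels of different genes were not compared. The main axis of variation over all probes (47.3% of the variance) set replicate 1 of each genotype apart from the other 6 arrays, and these 2 arrays were scanned on days of their own. Scan day 1 alone held both genotypes, at separate scan times: NPRA-/- replicates 2 and 3 and NPRA+/+ replicates 2 and 3. Wherever a slide is named below, it is inferred from a common scan time and was not read from a slide label.

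The first comparison asked whether the interferon response genes differ between NPRA-/- and NPRA+/+ myocardium. None of the 28 genes passed the test in either direction (limma, Benjamini-Hochberg over 35329 probes, threshold 0.05; 0 higher and 0 lower), and the smallest adjusted p was 0.13, for Zbp1. Over all probes 0.348% passed, with 113 higher (0.32%) and 10 lower (0.0283%) on the NPRA-/- arrays, and over genes with 1 probe each 0.32% passed. With no adjustment and a threshold of 0.05, 2 genes of the list, Zbp1 and Cxcl10, were higher and 0 lower, against 18.3% of all probes higher, 1.36% lower, and 17.4% of all genes in either direction. The genotypes did not overlap for 1 gene of the list, Zbp1, which was higher on every NPRA-/- array, and for 0 genes lower; the same held for 14.1% and 1.29% of all probes, and for 13% of all genes in the higher direction. The counts of the list were thus not above those of the array as a whole.

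The fitted log2 change, NPRA-/- over NPRA+/+, was above 0 for 19 genes of the list and below 0 for 9, with a median of 0.10 and a range from -0.19 (Igtp) to 1.08 (Cxcl10). All probes together were shifted by a median of 0.21 under this scaling, and relative to that shift the median of the list was -0.11. Over all genes tested, with 1 probe each, the median change was 0.16, and 8 genes of the list lay above that value and 20 below it. Probes were split into 5 equal classes by signal. The shift was 0.63 in the dimmest class and 0.05 in the brightest, and 24 of the 28 genes lay in the 2 brightest classes, where it was at most 0.05. Under quantile normalization, where the median change of all probes was -0.00, the median of the list relative to it was 0.04, so the sign of this small difference turns with the scaling. The 95% interval of a gene, not adjusted for the number of probes, reached a median of 0.46 to either side of its fitted value. A call after adjustment over all probes asks for more than an interval clear of 0. Zbp1 at 0.39 and Cxcl10 at 1.08 had intervals above 0 and were not called.

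**Figure D1:**
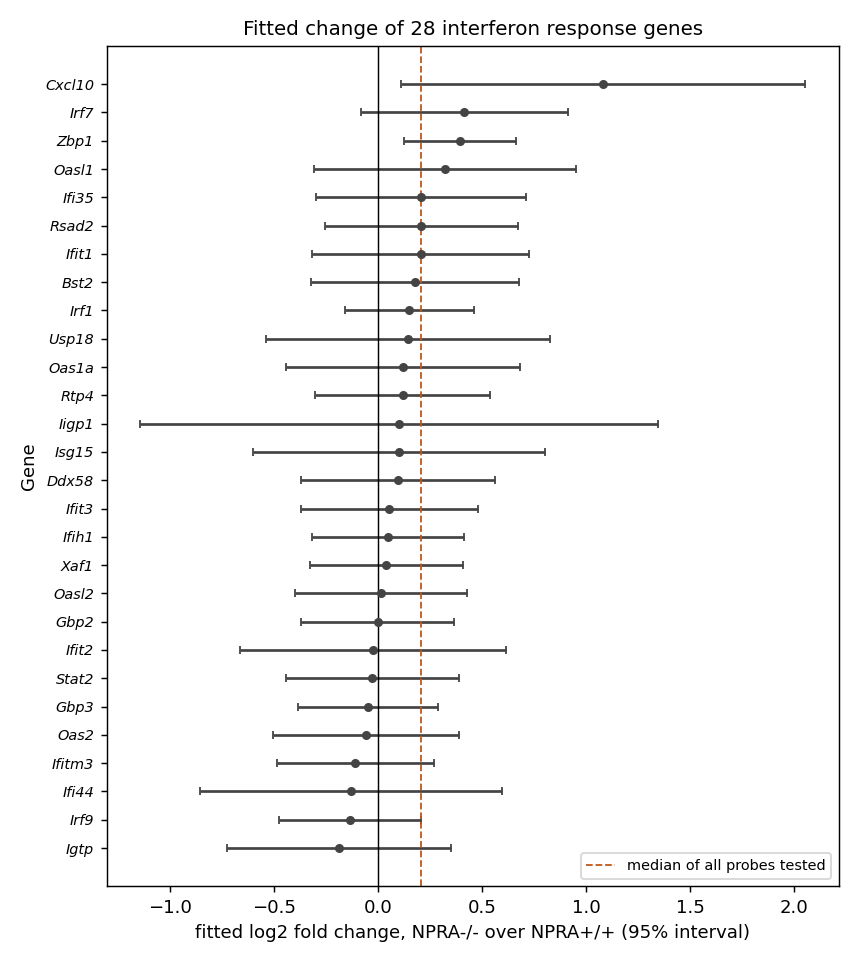
Fitted log2 fold change of each of the 28 interferon response genes, NPRA-/- over NPRA+/+ (x axis; points are limma estimates from 3 against 5 arrays, bars their 95% intervals), with genes on the y axis in order of the estimate. The solid line marks 0 and the dashed line the median of all probes tested, 0.21. Only the intervals of Cxcl10 and Zbp1 lie wholly above 0.

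The transcription factors of the pathway showed no shared direction between the genotypes. Irf7, the factor that amplifies type I interferon production, had levels of -4.23, -4.89 and -4.88 on the NPRA-/- arrays and -4.93, -5.06, -4.76, -5.43 and -5.23 on the NPRA+/+ arrays. NPRA-/- replicate 1 was the highest, and NPRA+/+ replicate 3 stood above the other 2 NPRA-/- arrays. The fitted change was 0.41 ± 0.22 (SE, limma adjusted p = 0.33), for a probe in the dimmest signal class, and it turned to -0.10 under quantile normalization and -0.09 in the deposited series table. Irf9, the DNA-binding subunit of the type I complex, had levels of 1.32, 1.28 and 1.31 on the NPRA-/- arrays and 1.12, 1.49, 1.71, 1.41 and 1.45 on the NPRA+/+ arrays. The NPRA-/- arrays lay within 0.04 of each other, inside the wider range of the NPRA+/+ arrays, and the fitted change was -0.13 ± 0.15 (SE, limma adjusted p = 0.67).

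Stat2, a further subunit of that complex, had levels of 1.35, 1.47 and 1.52 on the NPRA-/- arrays and 1.02, 1.63, 1.74, 1.37 and 1.58 on the NPRA+/+ arrays. NPRA+/+ replicate 1 was lowest and NPRA+/+ replicate 3 highest, with the NPRA-/- arrays between them. Irf1 had levels of 2.60, 2.91 and 2.69 on the NPRA-/- arrays and 2.37, 2.58, 2.66, 2.63 and 2.69 on the NPRA+/+ arrays. The genotypes overlapped, and the fitted change was 0.15 ± 0.14 (SE, limma adjusted p = 0.59).

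The nucleic acid sensors were represented by Ddx58 (RIG-I) and Ifih1 (MDA5), which detect viral RNA, and by Zbp1, which binds left-handed nucleic acids and can trigger necroptosis. Zbp1 had levels of -2.57, -2.73 and -2.63 on the NPRA-/- arrays and -2.95, -3.07, -3.00, -2.98 and -3.18 on the NPRA+/+ arrays. All 3 NPRA-/- arrays lay above all 5 NPRA+/+ arrays, with an SD of 0.08 within NPRA-/- (n = 3) and 0.09 within NPRA+/+ (n = 5). The fitted change was 0.39 ± 0.12 (SE, limma adjusted p = 0.13), a 1.31-fold difference with a 95% interval from 0.12 to 0.66 on the log2 scale. It did not pass the threshold, and it was 0.10 ± 0.12 (SE, limma adjusted p = 0.86) under quantile normalization and 0.11 in the deposited series table. A second, dimmer Zbp1 probe gave 0.34 ± 0.32 (SE, limma adjusted p = 0.60), with overlapping genotypes. The fitted changes of Ddx58 and Ifih1 were 0.10 and 0.05.

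Cxcl10, the chemokine that draws CXCR3-bearing T and NK cells, had the largest fitted change of the list. Its levels were -2.47, -3.30 and -1.37 on the NPRA-/- arrays and -3.48, -3.72, -2.76, -3.47 and -3.89 on the NPRA+/+ arrays. NPRA-/- replicate 3 stood highest, while NPRA-/- replicate 2 lay below NPRA+/+ replicate 3, so the genotypes overlapped. The fitted change was 1.08 ± 0.42 (SE, limma adjusted p = 0.21), a 2.12-fold difference. Without NPRA-/- replicate 3 it was 0.58 ± 0.35 (SE, limma adjusted p = 0.47). The T and NK cell markers, 7 genes, had a median fitted change of 0.51 and 0 calls, with a smallest limma adjusted p of 0.09. All 7 had fitted changes above 0. Before adjustment at 0.05, 2 were higher and 0 lower, against 16.2% and 1.24% of all genes. The summed linear signal of these markers, relative to the array's 75th percentile, ran from 3.21 to 3.87 on the NPRA-/- arrays. On the NPRA+/+ arrays it ran from 2.30 to 5.01. The part of these markers in the Cxcl10 values was not tested.

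Among the antiviral effectors, the 2',5'-oligoadenylate synthetases activate RNase L, and Oasl1 is a relative without that activity. Oasl1 had levels of -0.26, -1.05 and -1.21 on the NPRA-/- arrays and -1.13, -1.38, -0.56, -1.33 and -1.40 on the NPRA+/+ arrays. One array of each genotype, NPRA-/- replicate 1 and NPRA+/+ replicate 3, stood above the rest. The fitted change was 0.32 ± 0.28 (SE, limma adjusted p = 0.57). Rsad2 (viperin), a radical SAM enzyme that makes a chain-terminating nucleotide, had levels of -0.01, -0.38 and -0.68 on the NPRA-/- arrays and -0.91, -0.71, -0.32, -0.49 and -0.40 on the NPRA+/+ arrays. The same 2 arrays were highest in their genotypes, and the fitted change was 0.21 ± 0.20 (SE, limma adjusted p = 0.62).

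Ifitm3, a membrane protein that hinders fusion of viruses in endosomes, had levels of 2.31, 2.56 and 2.76 on the NPRA-/- arrays and 2.35, 2.77, 2.77, 2.56 and 2.81 on the NPRA+/+ arrays. Replicate 1 was the lowest array of each genotype, and the genotypes overlapped over nearly their whole range. The GTPase Gbp3 had levels of 1.67, 1.35 and 1.26 on the NPRA-/- arrays and 1.62, 1.44, 1.60, 1.39 and 1.31 on the NPRA+/+ arrays, with replicate 1 at the top of each genotype. Iigp1, an immunity-related GTPase that acts on pathogen vacuoles, had levels of 3.33, 1.28 and 1.35 on the NPRA-/- arrays and 2.91, 1.81, 1.20, 1.99 and 1.52 on the NPRA+/+ arrays. Replicate 1 of each genotype was high for Iigp1 and NPRA+/+ replicate 3 was the lowest of all 8 arrays. A second Iigp1 probe also had replicate 1 highest in each genotype, but there NPRA+/+ replicate 3, at 1.06, was not the lowest and lay 0.08 above the mean of the other NPRA+/+ arrays.

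On scan day 1, where both genotypes were scanned, the list had a median of -0.38 relative to the shift of all probes (2 against 2 arrays, 0 genes called higher and 0 lower by limma, with 1 higher and 2 lower before adjustment at 0.05, against 31.1% of all probes higher and 4.63% lower). The 2 lower genes were Igtp (-0.64 ± 0.18, SE, limma adjusted p = 0.08) and Ifit2 (-0.64 ± 0.23, SE, limma adjusted p = 0.14), and the higher was Zbp1 (0.36 ± 0.10, SE, limma adjusted p = 0.08). With quantile normalization of that day the median of the list relative to the shift was -0.20, with 0 called, and 0 higher and 3 lower before adjustment, against 13.9% of all probes in each direction. There Igtp was at -0.65, Ifit2 at -0.70, Irf7 at -0.47, and Zbp1 at 0.07 ± 0.10 (SE, limma adjusted p = 0.66). One of the 2 NPRA+/+ arrays of that day was replicate 3. Leaving out NPRA-/- replicate 1 and NPRA+/+ replicate 3 together gave a median of -0.15, again with 0 genes called in either direction and 2 higher and 0 lower before adjustment at 0.05, against 14.9% and 1.12% of all probes.

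The second question was how the list varies from array to array. On each array, every gene's deviation from its mean over the 8 arrays was taken, and the median deviation of all genes on that array was subtracted. The mean over the 28 genes was 0.27, -0.26 and -0.11 on NPRA-/- replicates 1 to 3 and 0.01, -0.09, 0.29, -0.07 and -0.06 on NPRA+/+ replicates 1 to 5. One array of each genotype thus stood high, NPRA-/- replicate 1 and NPRA+/+ replicate 3, and NPRA-/- replicate 2 stood lowest. Averaged by genotype the list stood at -0.03 ± 0.27 (SD, n = 3) for NPRA-/- and 0.01 ± 0.16 (SD, n = 5) for NPRA+/+, a difference of -0.05 that is smaller than either spread and became 0.05 under quantile normalization. The 2 high arrays kept their place there, at 0.38 and 0.24, and had the same values in the deposited series table.

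**Figure D2:**
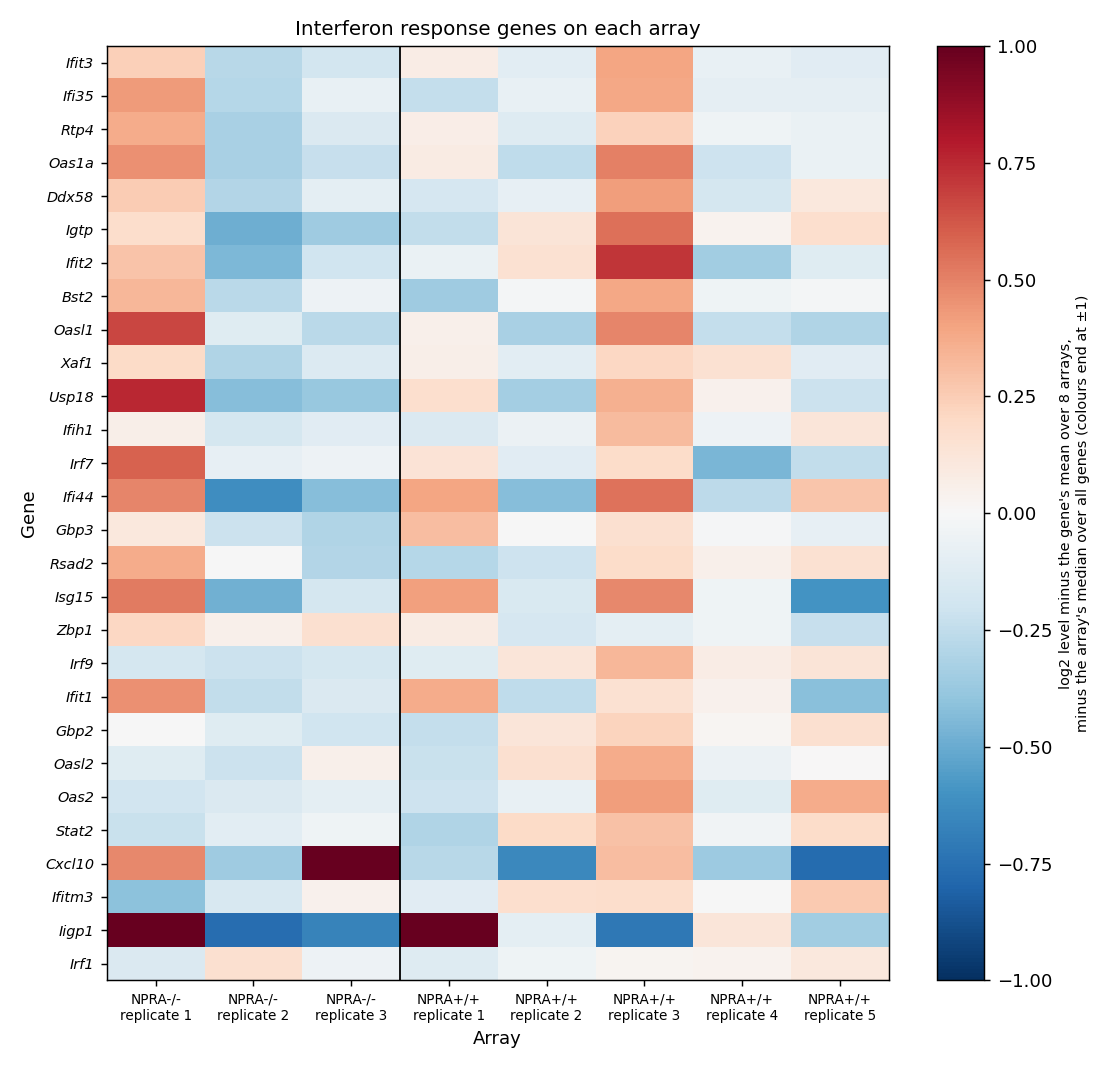
Deviation of the 28 interferon response genes (y axis) on each of the 8 arrays (x axis), as the log2 level minus the gene's mean over the arrays and minus the median deviation of all genes on that array; red is higher, blue lower, and colours end at 1 on the log2 scale. Genes are ordered by how closely they follow the rest of the list, from Ifit3 (r = 0.98) at the top to Irf1 (r = 0.02) at the bottom; NPRA-/- replicate 1 and NPRA+/+ replicate 3 are red for most genes.

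The height of these 2 arrays was spread over the list and did not come from a few genes. NPRA+/+ replicate 3 lay above the mean of the other 4 NPRA+/+ arrays for 27 of the 28 genes, against 58.6% of all genes, with a median excess of 0.43 (1.35-fold). The exception was Iigp1 by its brighter probe. NPRA-/- replicate 1 exceeded the mean of the other 2 NPRA-/- arrays by a median of 0.48 (1.39-fold). Over all genes tested the same medians were 0.06 and -0.03. NPRA+/+ replicate 3 was the highest array of its genotype for 22 of 28 genes, against 22% of all genes, and NPRA-/- replicate 1 was the highest of its genotype for 22 of 28, against 42% of all genes. Both held for 18 of the 28 genes (64.3%), against 6.36% of all genes, and these 2 arrays were the 2 highest of all 8 for 17 genes (60.7%), against 3.62% of all genes. The corresponding counts were 18 and 17 under quantile normalization and 17 for each in the values of the deposited series table. The pattern was looked for in arrays that these data had already singled out, so the counts are descriptions without a test.

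The 18 members on which both arrays stood highest in their genotype were the ubiquitin-like modifier Isg15 and its protease Usp18, Ifit2 and Ifit3 of the family that binds foreign RNA ends, the factors Irf7 and Irf9, the synthetase genes Oas1a and Oasl1, the effectors Rsad2, Bst2, Rtp4, Xaf1, Ifi35 and Ifi44, the sensors Ddx58 and Ifih1, and the GTPases Gbp2 and Igtp. Among these 18 genes the excess of NPRA+/+ replicate 3 over the other NPRA+/+ arrays ran from 0.27 to 0.87, and that of NPRA-/- replicate 1 over the other NPRA-/- arrays from 0.02 (Irf9) to 1.16 (Usp18, 2.23-fold). Stat2, Oas2, Oasl2 and Cxcl10 had only NPRA+/+ replicate 3 highest in its genotype. Ifit1, Gbp3, Zbp1 and Iigp1 had only NPRA-/- replicate 1 highest. Irf1 and Ifitm3 had neither.

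Ifit3 shows the pattern most plainly, with levels of 1.22, 0.71 and 0.79 on the NPRA-/- arrays and 0.80, 0.75, 1.25, 0.75 and 0.70 on the NPRA+/+ arrays. The other 6 arrays lay within 0.10 of each other, while the 2 high arrays stood about 0.4 above them. The fitted genotype difference was 0.06 ± 0.18 (SE, limma adjusted p = 0.90). Oas1a had levels of 0.42, -0.36 and -0.27 on the NPRA-/- arrays and -0.21, -0.42, 0.35, -0.40 and -0.28 on the NPRA+/+ arrays. Here too the 6 remaining arrays kept close together, and the fitted difference was 0.12 ± 0.24 (SE, limma adjusted p = 0.83). Rtp4, which encodes a chaperone of surface receptors that also binds viral RNA, had levels of 1.46, 0.77 and 0.95 on the NPRA-/- arrays and 0.91, 0.84, 1.21, 0.89 and 0.86 on the NPRA+/+ arrays. Its fitted difference was 0.12 ± 0.18 (SE, limma adjusted p = 0.78).

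**Figure D3:**
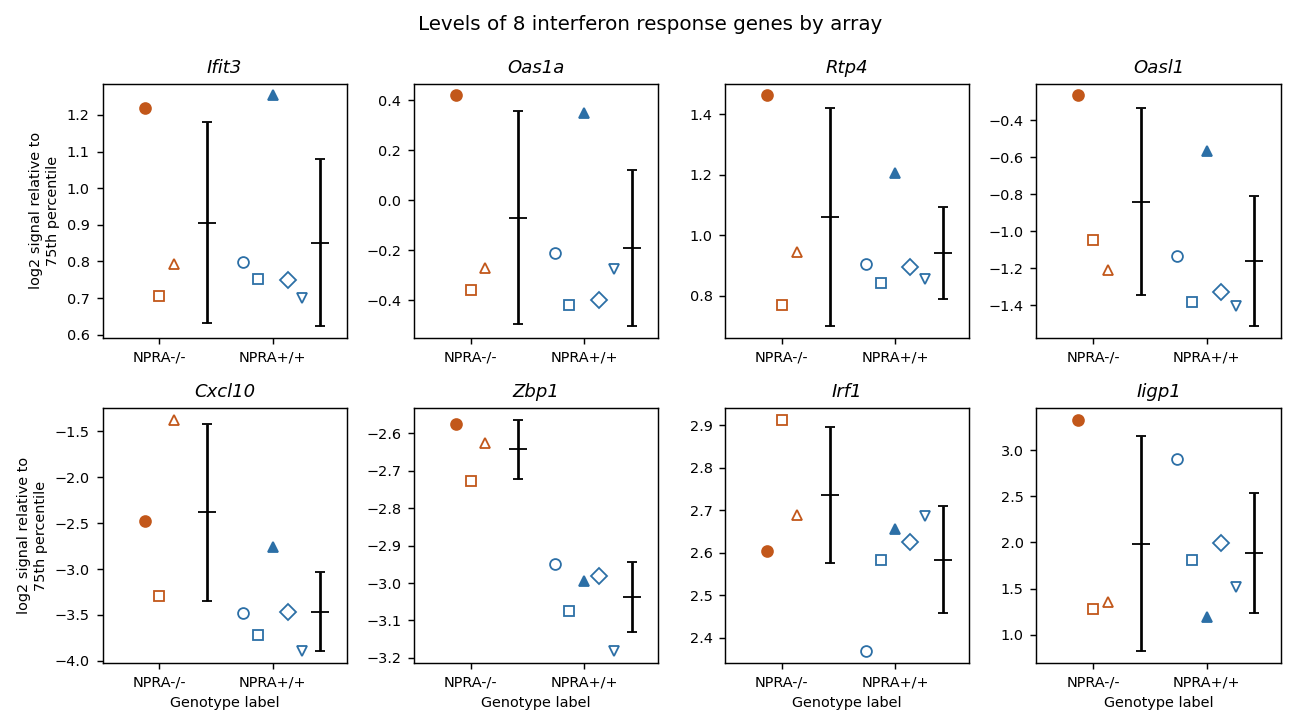
Levels of 8 interferon response genes on each array, as log2 signal relative to the array's 75th percentile (y axis, own range for each gene), by genotype label (x axis). Symbols are single arrays (circle, square, up triangle, diamond and down triangle for replicates 1 to 5), filled for NPRA-/- replicate 1 and NPRA+/+ replicate 3, and bars are the mean and SD; the filled symbols sit at the top of both genotypes for Ifit3, Oas1a, Rtp4 and Oasl1, while for Zbp1 the genotypes do not overlap.

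Genes of the list followed each other across the arrays. With the genotype means removed, the correlation of each gene with the mean of the other genes of the list over the 8 arrays had a median of 0.76, and it was above 0.5 for 23 of the 28. For 18811 other genes the correlation with the list's mean had a median of 0.09, and 15.1% were above 0.5. The closest followers were Ifit3 (r = 0.98), Ifi35 (r = 0.97), Rtp4 (r = 0.96) and Oas1a (r = 0.96). Irf1 (r = 0.02), Iigp1 (r = 0.03) and Ifitm3 (r = 0.04) did not follow the rest, and Cxcl10 (r = 0.35) and Stat2 (r = 0.38) did so weakly. The correlation rests largely on the 2 high arrays. Without them, over 6 arrays, the median was 0.41 for the list and 0.34 for other genes. The 8 points share an array each, with its scaling, and are a description with no p.

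The second, dimmer probes of the list followed the pattern less closely. Of 8 such probes, NPRA+/+ replicate 3 was the highest of its genotype for 5, NPRA-/- replicate 1 for 4, and both held for 2, those of Oas1a and Zbp1. The probes of Isg15 disagreed most. The brighter one, which stands for the gene, had levels of 0.80, -0.20 and 0.10 on the NPRA-/- arrays and 0.43, -0.00, 0.64, 0.07 and -0.49 on the NPRA+/+ arrays. The dimmer one had -1.68, -4.83 and -3.64 on the NPRA-/- arrays and 0.20, -3.92, -3.72, -1.61 and -2.81 on the NPRA+/+ arrays, where NPRA+/+ replicate 1 was highest and replicate 3 was not high.

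The first promoter element was present both in genes on which the 2 arrays were high and in genes on which they were not. Both arrays stood highest in their genotype for 9 of the 14 genes with the element in the window and for 7 of the 9 without it. The median excess of NPRA+/+ replicate 3 was 0.46 in each of these groups, and that of NPRA-/- replicate 1 was 0.46 with the element and 0.61 without. Isg15, Ifit3 and Oas1a, whose promoters are printed above, were among the first group, and Ifit2, Oasl1 and Ifi35 among the second.

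Other interferon genes were read from 4 further lists, and none of their genes passed the test in either direction (0 higher and 0 lower in each, limma). Of the further interferon-induced genes, 49 of 52 were tested, with a median fitted change of 0.04. Before adjustment at 0.05, 4 of the 49 were higher and 0 lower, against 16.2% of all genes higher and 1.24% lower. The 3 of smallest p were Oas3 (0.67 ± 0.20, SE, limma adjusted p = 0.13), Slfn1 (1.08 ± 0.34, SE, limma adjusted p = 0.14) and Tgtp1 (0.69 ± 0.22, SE, limma adjusted p = 0.15). Oas3 and Slfn1 lay in the dimmest signal class, where the median shift was 0.63, and Slfn1 was well above background on only 2 of 3 NPRA-/- and 1 of 5 NPRA+/+ arrays. Of 26 signalling and sensing genes, 2 were higher and 0 lower before adjustment at 0.05, against the same shares of all genes, with a median fitted change of 0.10. The 2 were Ikbke (0.71 ± 0.26, SE, limma adjusted p = 0.19), a kinase that activates IRF3 and IRF7, and Socs1 (0.40 ± 0.15, SE, limma adjusted p = 0.20), an inhibitor of JAK signalling. Irf5 followed at 0.33. Under quantile normalization these values were smaller, 0.19 for Oas3, 0.43 for Slfn1, 0.49 for Tgtp1, 0.39 for Ikbke, 0.17 for Socs1 and 0.10 for Irf5.

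The interferons themselves and their receptors gave 13 genes tested of 19, with a median fitted change of 0.09. Before adjustment at 0.05, 0 were higher and 0 lower, against 16.2% and 1.24% of all genes. Ifng, which encodes interferon-gamma, had the smallest p (0.73 ± 0.32, SE, limma adjusted p = 0.26) and overlapped between the genotypes, as did Ifna2 (0.32) and Ifna4 (0.36). The Ifng probe lay in the dimmest signal class, where the median shift was 0.63, and was well above background on only 3 of 5 NPRA+/+ arrays. Under quantile normalization Ifng was at 0.09, and Ifna2 and Ifna4 turned to -0.10 and -0.02. The 19 antigen presentation genes likewise had 0 on either side before adjustment, with a median of 0.02. Ciita, the coactivator of MHC class II genes, was at -0.55 ± 0.25 (SE, limma adjusted p = 0.27), and the proteasome activator subunits Psme1 and Psme2 were at -0.27 and 0.20. Under quantile normalization they were at -0.84, -0.33 and 0.09.

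The array pattern extended in part to these lists. NPRA+/+ replicate 3 had a mean deviation of 0.19 over the further interferon-induced genes and 0.18 over the antigen presentation genes, and it lay above the mean of the other NPRA+/+ arrays for 42 of 49 and 15 of 19 of them, against 58.6% of all genes. For the signalling and sensing genes and for the ligands and receptors its mean deviations were 0.04 and -0.00. NPRA-/- replicate 1 had mean deviations of 0.08, 0.05, 0.01 and 0.06 over these 4 lists in the same order, against 0.27 over the 28 genes. Both arrays were highest in their genotype for 12 of 49 (24.5%), 8 of 19 (42.1%), 3 of 26 and 0 of 13 genes, against 6.36% of all genes. Under quantile normalization the antigen presentation genes gave 5 of 19 (26.3%) and the signalling and sensing genes 5 of 26 (19.2%), as they did in the deposited series table.

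Markers of other cells were followed beside the pattern. Macrophage markers, 10 genes led by Csf1r, C1qc and Adgre1, had mean deviations of -0.07 on NPRA-/- replicate 1 and -0.01 on NPRA+/+ replicate 3. Their summed linear signal ran from 23.6 to 25.3 on the NPRA-/- arrays and from 18.5 to 24.8 on the NPRA+/+ arrays. The cardiomyocyte markers stood at 1.15 on NPRA-/- replicate 1 and at 1.12 on NPRA+/+ replicate 1, which became 0.27 and 0.43 under quantile normalization. The T and NK cell markers had means of 0.52 and 0.58 on these arrays but medians of 0.29 and 0.04, and Cd4 was at 1.25 on NPRA+/+ replicate 1 against -2.08 to -1.38 on the other NPRA+/+ arrays. The interferon response genes stood at 0.01 on NPRA+/+ replicate 1. On NPRA+/+ replicate 3 the cardiomyocyte and the T and NK cell markers stood at -0.33 and -0.37. Of 6 neutrophil markers, 4 were higher and 0 lower on the NPRA-/- arrays before adjustment at 0.05 (among them S100a9, 1.04, and S100a8, 1.06), against 16.2% and 1.24% of all genes, and 0 were called by limma. Csf3r, the brightest of the 6, was not among the 4, at 0.13 ± 0.15 (SE, limma adjusted p = 0.69) with overlapping genotypes. The summed linear signal of the 6 ran from 38.3 to 46.1 on the NPRA-/- arrays and from 32.2 to 44.6 on the NPRA+/+ arrays. That sum was mostly the signal of Csf3r, so its overlap is not a separate reading of the other markers. The neutrophil list stood at 0.19 on NPRA-/- replicate 1, which was 0.00 under quantile normalization, and -0.26 on NPRA+/+ replicate 3. The markers of plasmacytoid dendritic cells, known for making type I interferon, had means of 0.38 on NPRA-/- replicate 1, 0.62 on NPRA+/+ replicate 1 and -0.32 on NPRA+/+ replicate 3. Their medians on these arrays were -0.24, 0.09 and -0.32. Of the 3 markers only Siglech was high on replicate 1 of each genotype, at 6.85 on the NPRA-/- one against 4.06 and 3.88 on the other NPRA-/- arrays. The part of these cells in the interferon response values was not tested. NPRA+/+ replicate 3 shared its scan time, taken as its slide, with NPRA+/+ replicate 2, at -0.09. It shared its scan day with NPRA-/- replicates 2 and 3, at -0.26 and -0.11. NPRA-/- replicate 1 was the only array of its scan time and its scan day, so there the sample and the day cannot be told apart. The part of the sample, its handling, the slide or the day in the height of either array was not tested.

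**Figure D4:**
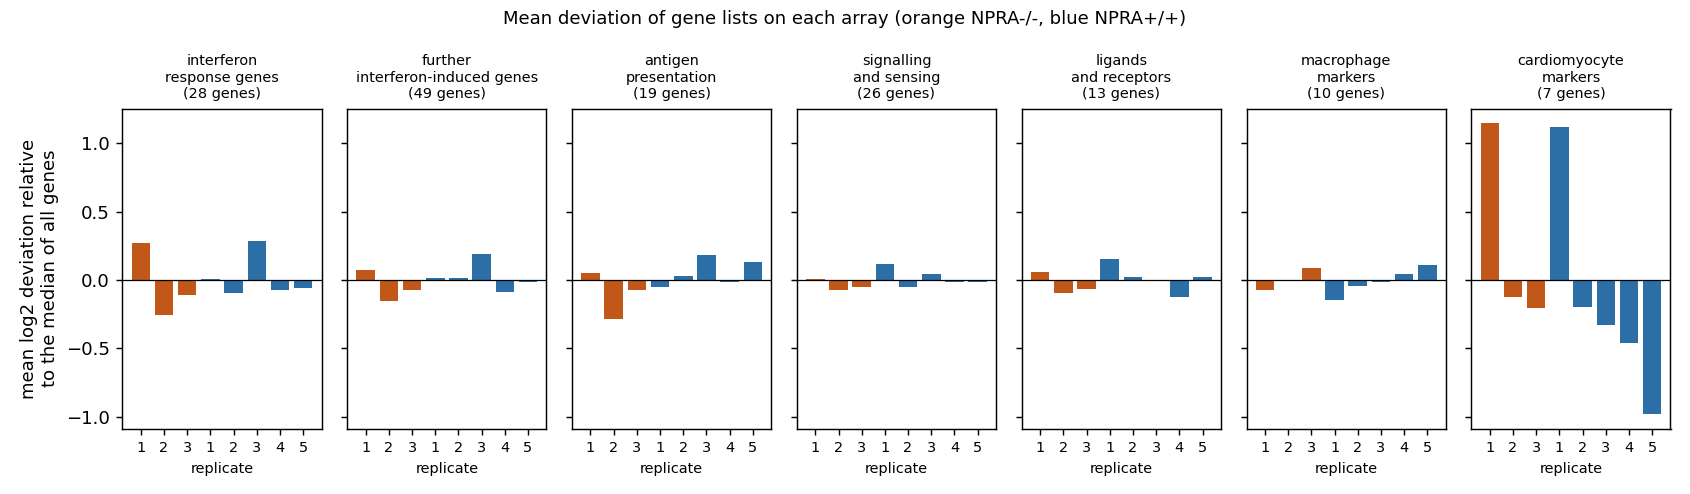
Mean deviation of 7 gene lists on each array (y axis, log2, relative to the median of all genes on that array; bars start at 0), with replicates of NPRA-/- in orange and of NPRA+/+ in blue along the x axis. The interferon response genes stand high on NPRA-/- replicate 1 (0.27) and NPRA+/+ replicate 3 (0.29), whereas the cardiomyocyte markers stand high on replicate 1 of both genotypes (1.15 and 1.12 under this scaling, 0.27 and 0.43 under quantile normalization).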

How the data were processed

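Cy3-labelled RNA of 8 myocardium samples was hybridised, per the labels' protocols. Each deposited scanner file gives linear intensity per spot, background-subtracted within the array per the file headers, beside flags of 0 or 1 (other values). Agilent Feature Extraction 11.0.1.1 is named in the submitters' processing notes. The deposited series table holds log2 values of unstated normalization. Its columns had a median of 7.04 and followed the probe ranks of their scanner files (rank correlation of 0.999 or more). Scale and centring of that table stay unknown. It was used as an alternative, with 56 of 39485 entries not matched.

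Control spots and outlier spots were left out, spots of a probe averaged on the log2 scale and each array's 75th percentile subtracted. Probes well above background on at least 3 of 8 arrays were tested, 35329 of 39429. Probes were named by RefSeq accession through the gene table of GRCm38.p6: 27234 had 1 symbol and 12195 none. The brightest probe stood for a gene. NPRA-/- was set against NPRA+/+ by limma's lmFit and eBayes (version 3.58.1, R 4.3.3), two-sided, with Benjamini-Hochberg adjustment over the probes tested, and the analysis was tested on simulated data. Every adjusted p is from limma. Promoters are those of RefSeq (GRCm38.p6).

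The members and lists were chosen with earlier results of these data known. Values on every array are given for the genes whose genotypes do not overlap, the 6 of smallest p, the 6 of highest mean and those with an outlying NPRA+/+ array; those of Isg15 are given because its probes disagree, after they were seen. Of each further interferon list the 3 genes of smallest p are named, and of cell lists up to 3 of the brightest.

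Descriptions number the samples 1 to 3 and 1 to 5, while source names give 3 NPRA+/+ arrays the number 1. Deviations of equally numbered samples correlated by 0.63, 0.28 and 0.36 across probes. The 0.63 is between the replicate 1 arrays, which the main axis of variation set apart. Unequal pairs between replicates 2 and 3 correlated by 0.25 and 0.33. Unequal pairs with replicate 1 of either genotype were negative, down to -0.60. Whether the numbers pair the samples is thus not settled.

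Alternatives were quantile and median scaling, normexp with an offset of 50 on the median spot signal, other filters, the deposited table, blocks, array weights, averaged arrays and leaving out arrays. Those of scan day 1 alone (also with quantile normalization), without replicate 1 of both genotypes, without the 2 high arrays, and the motif TTCNNNGAA were added after the data were seen.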

Additional observations from a re-analysis of the deposited data

Results flagged for a closer look

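Within the 5 NPRA+/+ arrays, replicate 3 stood apart for 3 of the 28 genes and for the mean of the list, by the gap to the nearest array divided by the whole range of the genotype, compared with Dixon's critical value of 0.71. The ratio was 0.82 for Ifit3, 0.73 for Oas1a and 0.83 for Rtp4, with replicate 3 the highest array each time. For the mean deviation of the members it was 0.73, again with replicate 3 highest, and under quantile normalization it was 0.57, below the critical value. Chance marks about 1 in 20 such groups, and the 28 genes are not independent. The share of all genes so marked on these arrays is not given here, so the count of 3 is not shown to be particular to the list. The 3 NPRA-/- arrays are too few for this comparison.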

How the results depend on the processing

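Under array weights, 1 gene of the list was called higher (Zbp1, 0.38, limma adjusted p = 0.009) and 1 lower (Igtp, -0.49, limma adjusted p = 0.03). With the same weights 8808 of all 35329 probes were called higher and 749 lower, so such calls were not particular to the list. Under all other alternatives, leaving out each array included, 0 were called in either direction, with 0 to 3 higher and 0 to 3 lower at an unadjusted p under 0.05. The median of the list relative to all probes, -0.11 as reported, was -0.30 with array weights, -0.32 with normexp, -0.38 with scan day as a block, -0.38 within scan day 1, -0.30 without replicate 1 of both genotypes and 0.10 with no reference subtracted. Leaving out 1 array gave -0.23 to -0.04. It was 0.04 under quantile normalization and in the deposited table. The replicate block left 0 genes of the list called by either numbering, with medians of -0.15 (repetition number) and -0.08 (source name number).

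The count over all probes, 113 higher and 10 lower, was 3 and 0 when every array had to be above background, 183 and 10 with no filter, 8808 and 749 with array weights, 5494 and 485 within scan day 1, and 3954 and 180 without replicate 1 of both genotypes. The replicate block gave 0 and 0 by repetition number and 1 and 21 by source name number. It was 0 and 0 with averaged arrays, the deposited table, normexp, quantile normalization (also within scan day 1), scaling to the median, scan day as a block, slide as a random block and without the 2 high arrays. Where limma called 0, between 1421 and 8472 probes were higher and between 341 and 4899 lower at an unadjusted p under 0.05. Leaving out 1 array gave 0 to 3901 higher and 0 to 187 lower, the upper values without NPRA+/+ replicate 1. The cause was not tested. Of 672 values of the 28 genes under 24 alternatives, 150 turned sign, none of them called; Zbp1, Cxcl10, Irf9 and Igtp kept their sign throughout.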
